A study of Homo sapiens with 4 samples.

Results

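CACNA1E and 9 other genes for subunits of voltage-gated calcium channels were followed on 4 expression arrays. The 10 genes were listed by name and found through the annotated gene symbol of each probe, which gave 19 of the 48801 probes and 10 of the 18852 named genes. They were listed because CACNA1E was lower by nearly equal amounts in both cell lines, so the SOX2 siRNA changes of these genes are described below without a test. RNA had been taken at 48 h from 2 established human lung squamous cell carcinoma lines. The 4 groups were LK2 with a pool of SOX2 siRNAs, LK2 with scrambled control siRNAs, H520 with the SOX2 siRNA pool and H520 with the scrambled control. SOX2 is a transcription factor gene in a region often amplified in this cancer, and the design asks which transcripts differ when it is depleted. Each group was 1 array of 1 cell line, so no value has a replicate and precision is limited by how few arrays there are.

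Voltage-gated calcium channels open when the membrane depolarises and let calcium into the cell. A large alpha-1 subunit forms the pore and sets the channel type. In high-voltage-activated channels, a cytosolic beta subunit and an extracellular alpha-2-delta subunit raise the number of channels at the surface and tune their gating. These channels are best known in neurons, muscle and endocrine cells, where calcium entry triggers transmitter release, contraction or secretion. Among the alpha-1 genes, CACNA1E encodes the R-type channel, CACNA1A the P/Q-type, CACNA1C and CACNA1D L-types, and CACNA1G and CACNA1H the low-voltage-activated T-types.

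The values are processed log2 values that lie around 0 for each probe, so a value says how an array stands relative to the others for that probe and not how strongly the gene is expressed. Levels of different genes cannot be ranked from them, nor can it be read whether a gene was above background. The labelled lineage could not be checked by level for the same reason. A change is the log2 value with SOX2 siRNA minus that with control siRNA, and a line difference is LK2 minus H520. SOX2 itself, by the mean of its 2 probes, was at -1.97 with SOX2 siRNA and 0.14 with control siRNA in LK2, and at -0.38 and 0.28 in H520. Its change was -2.11 in LK2 and -0.66 in H520.

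CACNA1E stood at 0.03 in LK2 with SOX2 siRNA and at 1.36 in LK2 with control siRNA. In H520 it was at -1.50 with SOX2 siRNA and at -0.14 with control siRNA. The control array of LK2 was the highest of the 4 and the SOX2 siRNA array of H520 the lowest, 2.86 apart, while LK2 with SOX2 siRNA lay only 0.18 above H520 with control siRNA. The change was -1.33 in LK2, where 39.8% of the control signal remained, and -1.35 in H520, where 39.2% remained. The changes of the 2 lines thus differed by 0.02 in the deposited values, beside changes of SOX2 itself that differed by more than 1. Deposited differences followed those of unlabelled log2 scanner intensities with slopes of 0.896 within LK2 and 1.06 within H520, in the best-matching pairings. The scale thus differs between the lines, and whether the changes are as close on the scanner scale was not tested. A difference between the responses of the lines cannot be tested with 4 arrays. In RNA of whole cultures, fewer cells with the transcript and less transcript per cell cannot be told apart. CACNA1E has 1 probe on the array, so no other probe could be set beside these values. For scale, in 3934 genes with 2 probes, the changes of single probes had an SD about their gene's mean of 0.21 in LK2 and 0.18 in H520 (root mean square over genes).

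Of all 18852 genes, 1.3% were at least 1.5-fold lower in LK2 and 1.07% in H520, and 41 genes (0.217%) in both. Among the 10 subunits, CACNA1E alone was at least 1.5-fold lower in LK2, in H520 and in both, which its choice had fixed. At least 1.5-fold higher were 0 of the 10 in either line, where 1.9% of all genes were in LK2, 0.806% in H520 and 0.223% in both. A change as low as that of CACNA1E or lower was seen in 28 genes in LK2 and 14 in H520, counting CACNA1E. In both lines at once there was 1 other such gene, the interleukin receptor gene IL13RA1, at -2.09 in LK2 and -1.41 in H520. Of the 41 genes lower in both lines, 1 had responses closer to each other than CACNA1E, the dehydrogenase gene SDR16C5, at -0.69 in LK2 and -0.68 in H520. Both of these genes were picked out after their values were seen.

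The promoter of CACNA1E is shown because CACNA1E is the one subunit past 1.5-fold with SOX2 siRNA, beside those of CACNB3, which differed between the lines, and of CACNA1D, which was near 0 on all arrays. Each sequence runs from 250 bases before to 50 bases after the start of the gene in RefSeq (GRCh38.p14), and CG dinucleotides are in capitals. All 3 lie on the plus strand: CACNA1E at chr1:181483267-181483566, CACNB3 (the most upstream of 3 listed starts) at chr12:48814230-48814529 and CACNA1D at chr3:53494361-53494660.
CACNA1E: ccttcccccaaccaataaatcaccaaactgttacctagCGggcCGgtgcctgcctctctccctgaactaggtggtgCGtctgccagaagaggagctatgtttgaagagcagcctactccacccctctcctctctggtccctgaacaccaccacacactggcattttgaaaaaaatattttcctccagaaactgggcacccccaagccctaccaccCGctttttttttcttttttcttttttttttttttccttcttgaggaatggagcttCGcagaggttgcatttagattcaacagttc
CACNB3: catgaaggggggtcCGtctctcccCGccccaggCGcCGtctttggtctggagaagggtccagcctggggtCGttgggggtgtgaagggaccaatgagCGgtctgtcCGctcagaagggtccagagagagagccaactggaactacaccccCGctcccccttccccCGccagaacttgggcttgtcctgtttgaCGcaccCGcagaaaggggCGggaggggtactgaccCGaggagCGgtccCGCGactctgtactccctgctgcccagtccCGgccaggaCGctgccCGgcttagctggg
CACNA1D: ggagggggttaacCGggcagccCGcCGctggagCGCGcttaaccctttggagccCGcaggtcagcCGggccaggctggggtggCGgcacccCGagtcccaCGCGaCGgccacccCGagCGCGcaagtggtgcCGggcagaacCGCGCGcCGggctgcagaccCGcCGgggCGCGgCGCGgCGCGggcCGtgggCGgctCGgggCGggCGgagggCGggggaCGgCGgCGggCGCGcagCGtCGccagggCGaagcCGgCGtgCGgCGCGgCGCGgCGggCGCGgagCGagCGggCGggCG

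The CACNA1E window holds 5 CG dinucleotides and 48% G or C, and has long runs of T just before the start. That of CACNB3 holds 19 and 66.7%, and that of CACNA1D 56 and 83%. RefSeq promoters were listed for 8 of the 10 genes, 11 windows in all, and the CACNA1E window had the lowest G and C content of the 11. Any window listed on chromosome 8, where none of the 10 genes lies, had been left out. It shared the lowest CG count with 1 of the 2 windows of CACNA2D2, which also holds 5. Over all 35116 listed promoters, the medians were 14 CG dinucleotides and 58.7% G or C. The letters ACAAT and ACAAAG, forms of the core bound by SOX proteins, were searched on both strands, and neither is in the CACNA1E window. ACAAT occurred in 27.4% of all promoters and in 1 of the 11 windows, that of CACNB1. ACAAAG occurred in 16.1% of all promoters and in 1 window, at the most downstream start of CACNB3. A match or its lack in so short a window is a description of the sequence and says nothing of binding.

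**Figure D1:**
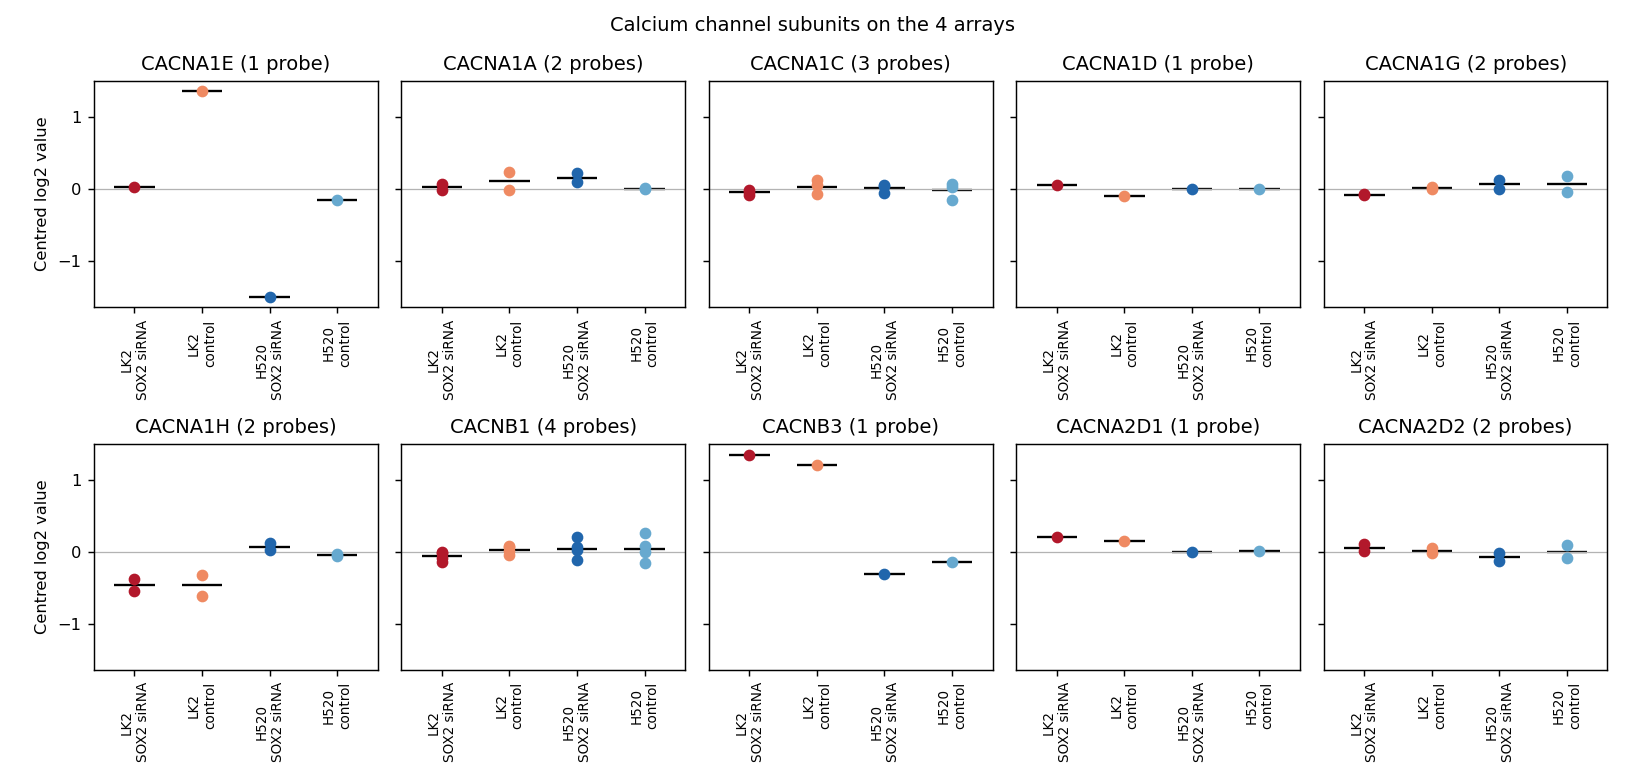
Centred log2 values (y axis) of the 10 calcium channel subunit genes on the 4 arrays (x axis), with a point for each probe and a bar for the mean of the gene's probes. CACNA1E runs from 1.36 on the LK2 control array to -1.50 on the H520 SOX2 siRNA array, CACNB3 is high on both LK2 arrays, and CACNA1H is low on both.

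The other alpha-1 genes varied little with SOX2 siRNA. CACNA1A, the P/Q-type pore gene known for its role in transmitter release, was at 0.03 with SOX2 siRNA and 0.12 with control siRNA in LK2, and at 0.16 and 0.00 in H520. Its arrays overlapped between treatments, and the changes of its 2 probes in LK2 were 0.08 and -0.25. CACNA1C, the L-type channel of heart and smooth muscle, was at -0.04 and 0.03 in LK2 and at 0.01 and -0.02 in H520. Its 4 values lay within 0.08 of each other, the narrowest spread of the 10 genes. CACNA1D, the L-type channel of pacemaker and endocrine cells, was at 0.05 with SOX2 siRNA and -0.10 with control siRNA in LK2, and at 0.00 on both H520 arrays. Its change of 0.15 in LK2 was the highest of the 9 genes besides CACNA1E in that line.

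The T-type genes CACNA1G and CACNA1H, whose channels open near the resting potential, also showed no large change with SOX2 siRNA. CACNA1G was at -0.08 with SOX2 siRNA and 0.02 with control siRNA in LK2, and at 0.07 on both H520 arrays. In H520 the changes of its 2 probes were -0.18 and 0.17, so that their mean was near 0. CACNA1H was at -0.46 with SOX2 siRNA and -0.47 with control siRNA in LK2, and at 0.07 and -0.04 in H520. Both LK2 arrays were below both H520 arrays, and the treatment arrays of each line were close.

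The beta subunits carry the pore to the surface and shape its opening. CACNB1, the beta subunit of skeletal muscle, was at -0.06 with SOX2 siRNA and 0.03 with control siRNA in LK2, and at 0.05 on both H520 arrays. Its 4 probes gave changes from -0.17 to 0.03 in LK2 and from -0.19 to 0.23 in H520, so their mean near 0 in H520 averages probes that disagreed. CACNB3, a beta subunit of brain and smooth muscle, was at 1.35 with SOX2 siRNA and 1.21 with control siRNA in LK2, and at -0.30 and -0.14 in H520. Both LK2 arrays were far above both H520 arrays, and its changes, 0.14 in LK2 and -0.17 in H520, had opposite signs. CACNB3 has 1 probe.

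CACNA2D1 and CACNA2D2 encode alpha-2-delta subunits, the binding sites of gabapentin drugs. CACNA2D1 was at 0.20 with SOX2 siRNA and 0.15 with control siRNA in LK2, and at -0.01 and 0.01 in H520. CACNA2D2 was at 0.06 and 0.02 in LK2 and at -0.07 and 0.00 in H520. By the mean of each gene's probes, every array of LK2 was above those of H520 for both genes, by small amounts. The arrays of the lines did not overlap in 63% of all genes. For CACNA2D2 the 2 probes disagreed, with line differences of 0.19 and -0.04. On the latter, the H520 control array, at 0.09, was above both LK2 arrays, at 0.01 with SOX2 siRNA and -0.01 with control siRNA.

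Set together, the 9 subunits besides CACNA1E changed by -0.09 to 0.15 in LK2 and by -0.17 to 0.16 in H520. Over all genes the SD of the changes was 0.26 in LK2 and 0.21 in H520. In LK2, 5 of the 9 were higher and 4 lower, in H520 4 were higher and 5 lower, and 7 had opposite signs in the 2 lines. These counts take changes of any size, and the share of all genes with such signs was not counted. The one lower in both lines was CACNA1G, and the one higher in both was CACNA1H. Some signs rest on values very near 0, with H520 changes of 0.0003 for CACNB1 and -0.001 for CACNA1G. With median centring CACNB1 was also lower in both lines. With 1 probe per gene CACNB1 was lower, and CACNA1A and CACNA1C higher, in both lines. The counts of signs thus depend on the processing. The median change of all 10 was -0.03 in LK2 and 0.00 in H520, against medians of 0.00 in both lines over all genes. Single probes of the 9 genes ran from -0.25 to 0.15 in LK2 and from -0.19 to 0.23 in H520.

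**Figure D2:**
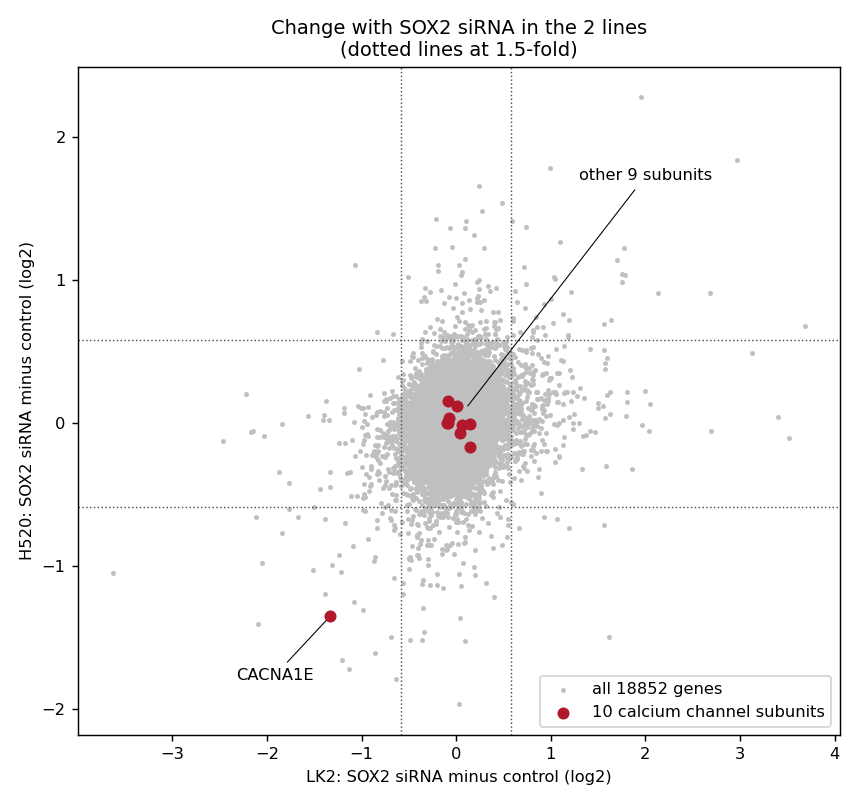
Change with SOX2 siRNA (log2, SOX2 siRNA minus control siRNA) in LK2 (x axis) and in H520 (y axis) for all 18852 genes in grey and the 10 calcium channel subunits in red, with dotted lines at 1.5-fold. CACNA1E lies at -1.33 and -1.35, outside the 1.5-fold lines of both lines, and the other 9 lie inside them.

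The difference between the lines was no part of the stated reason for listing the genes and was tested for the 9 subunits besides CACNA1E. The genes were listed with earlier results of these data known, so their independence of the line values is not shown. A linear model was fitted to all genes with limma, with siRNA as a block, and p-values were adjusted over all genes with the Benjamini-Hochberg method. A gene has 1 residual in this model, set by how far its siRNA changes differ between LK2 and H520. As CACNA1E was chosen for a small such difference, it gets no test here. The labels do not say whether the arrays came from separate cultures, so the p-values measure only the spread between these arrays, which may be technical. In the best-matching pairings of columns, the deposited differences between lines followed those of the scanner values less closely than differences within a line did. The slopes between lines were 0.799 and 0.786, both against the H520 control array. Whether this makes the folds between lines too small was not tested.

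CACNB3 was higher in LK2 than in H520 by 1.5 ± 0.12 (SE of the limma fit), or 2.82-fold (limma, adjusted p = 0.000403). It was higher by 1.65 on the SOX2 siRNA arrays and by 1.34 on the control arrays. In the 3934 genes with 2 probes, line differences of single probes had an SD about their gene's mean of 0.40 (root mean square). The SEs and intervals given here do not include that spread between probes, and CACNB3 has 1 probe. CACNA1H was lower in LK2, at -0.48 ± 0.10 (SE), or 1.39-fold higher in H520 (limma, adjusted p = 0.016). The difference was -0.53 on the SOX2 siRNA arrays and -0.42 on the control arrays. Its 2 probes gave -0.58 and -0.38, and when probes were fitted separately with limma the adjusted p-values were 0.00634 and 0.0537. CACNA1E, described without a test, was higher in LK2 by 1.53 with SOX2 siRNA and by 1.51 with control siRNA, a 2.86-fold difference by their mean.

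The 7 remaining subunits did not pass, with differences from -0.10 (CACNA1G) to 0.18 (CACNA2D1) and limma adjusted p-values from 0.274 to 0.991. The 95% interval of the difference was -0.07 to 0.42 for CACNA2D1, -0.34 to 0.15 for CACNA1G, -0.18 to 0.32 for CACNA2D2 and -0.31 to 0.18 for CACNB1. For CACNA1A it was -0.28 to 0.26, for CACNA1C -0.25 to 0.25 and for CACNA1D -0.28 to 0.23. Differences inside these bounds could not be resolved with 4 arrays. Of the 9 subunits tested, 2 passed, 1 in each direction, where 27.4% of all genes did (14% higher in LK2 and 13.4% higher in H520), so that share is not particular to the channel genes. By the means of the genes' probes, the arrays of the lines did not overlap for 7 of the 10 genes, against 63% of all genes. The median size of the difference was 0.09 over the 10 subunits and 0.18 over all genes.

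**Figure D3:**
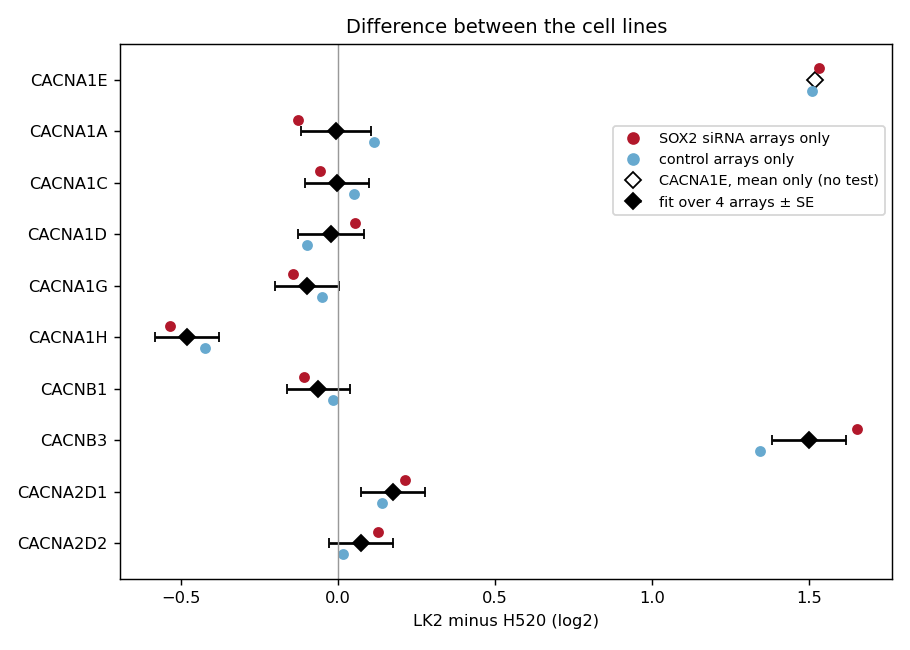
Difference between the lines (LK2 minus H520, log2) for each subunit on the SOX2 siRNA arrays (red), on the control arrays (blue) and in the fit over the 4 arrays (black diamonds, with the SE as bars, and an open diamond without SE for CACNA1E). CACNA1E and CACNB3 lie near 1.5 and CACNA1H near -0.48, while the other 7 lie near 0.

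The genes whose pattern was most like that of CACNA1E were found by the Euclidean distance over the 4 arrays, after each gene's own mean over the arrays was subtracted. The nearest was the T-box transcription factor gene TBX2, at a distance of 0.19, against a median of 2.03 over all genes. TBX2 was at 0.30 with SOX2 siRNA and 1.39 with control siRNA in LK2, and at -1.29 and -0.03 in H520. The order of its 4 arrays was that of CACNA1E, and its changes were -1.08 in LK2 and -1.26 in H520. Next came TMEM158, a membrane protein gene induced by RAS signalling, at a distance of 0.31 and with changes of -1.14 in LK2 and -1.72 in H520. PCDH19, a protocadherin gene of cell adhesion, followed at 0.37 with changes of -1.39 and -1.19. PTPN14, a tyrosine phosphatase gene, was at 0.56 with changes of -0.83 and -0.74, and OTOP1, a proton channel gene, at 0.57 with changes of -1.67 and -0.66. The nearest calcium channel subunit was CACNB3, at a distance of 1.34. These distances use the SOX2 siRNA changes by which CACNA1E was chosen and rest on 4 arrays, so they describe likeness only.

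**Figure D4:**
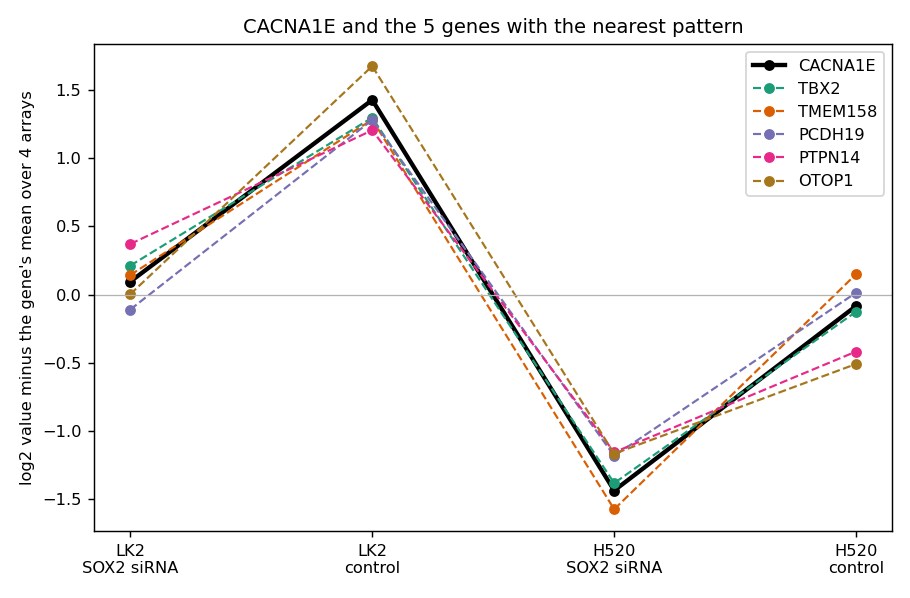
Log2 value of CACNA1E (black) and of the 5 genes with the nearest pattern (dashed) on the 4 arrays, each after its own mean over the arrays was subtracted. For CACNA1E, TBX2, PTPN14, PCDH19, TMEM158 and OTOP1 the LK2 control array is the highest and the H520 SOX2 siRNA array the lowest.

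Other genes of calcium entry, storage and response were set beside the channel subunits in 6 lists, with 81 of 87 listed genes measured. None of the 81 passed limma over all genes for SOX2 siRNA against control (0 calls), where 1 of all 18852 genes did (0.0053%), and 4 of the 81 had an unadjusted p under 0.05, against 1584 of all genes. SOX2 itself did not pass, at -1.38 ± 0.31 (SE, limma adjusted p = 0.33). Not passing this test therefore does not show that a gene was unchanged. At least 1.5-fold in the same direction in both lines were 0 of the 81, where 0.217% of all genes were lower and 0.223% higher. The median change over the 81 was -0.04 in LK2 and -0.01 in H520, and 2 genes in LK2 and 1 in H520 were past 1.5-fold. Of all genes, 1.3% were lower and 1.9% higher by that fold in LK2, and 1.07% and 0.806% in H520. Counts this small cannot be told apart from those shares. Counts of genes lower or higher in both lines, for these lists and the markers below, take changes of any size. The share of all genes with such signs was not counted, so those counts describe the lists only.

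Of 17 other channel subunit genes, 7 were lower and 3 higher in both lines, with none past 1.5-fold. The largest mean changes were in CACNA2D3, an alpha-2-delta gene, at -0.34 in LK2 and -0.12 in H520, and in CACNG1, a gamma subunit gene of skeletal muscle, at 0.14 and 0.28. Between the lines, 27.4% of all genes passed limma, and 14% of all genes passed and were higher in LK2. Of the 17, 2 passed and both were higher in LK2. These were CACNA2D3, by 0.40 ± 0.11 (SE, limma adjusted p = 0.0415), and CACNA1B, the N-type pore gene, by 0.59 ± 0.10 (limma adjusted p = 0.00663). CACNA1B was at 0.36 with SOX2 siRNA and 0.52 with control siRNA in LK2, and at -0.22 and -0.08 in H520, and it is named after its value was seen.

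Among 13 measured regulators and release partners of the channels, 2 were lower and 4 higher in both lines. STX1A, a syntaxin of the release machinery, had changes of 0.36 in LK2 and 0.14 in H520, and SYT1, a calcium sensor of vesicle release, -0.47 and -0.06. Of 13 genes of other calcium entry routes, 4 were lower and 3 higher in both lines. STIM2, a sensor of calcium in the endoplasmic reticulum, was at -0.23 and -0.24, and the sperm channel gene CATSPER1 at 0.09 and 0.16.

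Of the 6 genes for release from internal stores, 4 were lower and 0 higher in both lines, counting changes of any size. ITPR3, an inositol trisphosphate receptor gene, had a change of -0.51 in LK2 and -0.67 in H520, and ITPR1 of -0.06 and -0.48. Over both lines ITPR3 was at -0.59 ± 0.10 (SE), the lowest adjusted p of the 6 lists (limma, adjusted p = 0.259). It did not pass the test. ITPR1 was higher in LK2 than in H520 by 2.95 ± 0.13 (SE, limma adjusted p = 6.25e-05). Of 14 calcium removal genes, 7 were lower and 2 higher in both lines, with the plasma membrane pump gene ATP2B4 at -0.26 and -0.31 and the mitochondrial uniporter gene MCU at -0.15 and -0.30. Of 18 genes that respond to calcium, 8 were lower and 5 higher in both lines, with the calcineurin genes PPP3CC at -0.65 and -0.34 and PPP3R1 at 0.82 and 0.00. Over the 6 lists, 22 of the 81 genes (27.2%) passed limma for the line difference, 13 higher in LK2 and 9 higher in H520, near the 27.4% of all genes.

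**Figure D5:**
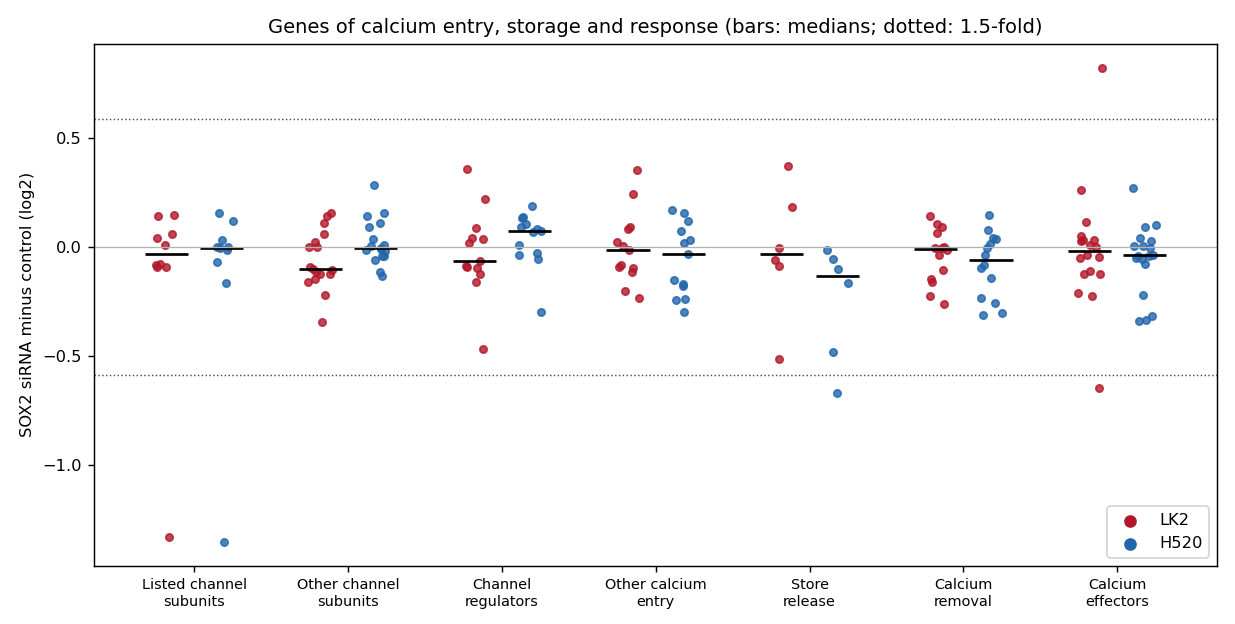
Change with SOX2 siRNA (log2, y axis) in LK2 (red) and H520 (blue) for the 10 listed channel subunits and for 6 lists of calcium genes (x axis), with a point for each gene, bars at the medians and dotted lines at 1.5-fold. CACNA1E is the lowest point in either line, at -1.33 and -1.35, and the medians of all lists lie within 0.14 of 0.

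Markers of neuroendocrine cells, in which such channels are known to act, were set beside CACNA1E. Of 13 measured markers, 3 were lower and 3 higher in both lines, with medians of 0.03 in LK2 and -0.05 in H520. The granule gene CHGB was at -0.24 and -0.81 and the transcription factor gene INSM1 at -0.18 and -0.76, both further below 0 in H520 than in LK2. CHGA, the remaining marker lower in both lines and named after its values were seen, was at -0.23 and -0.34. SYP, UCHL1 and ENO2, named after their values were seen, were the 3 higher in both lines. In that order they were at 0.31 and 0.22, 0.64 and 0.11, and 0.26 and 0.18. For SOX2 siRNA against control, 0 of the 13 passed limma, and neither did SOX2 itself. Of 10 measured squamous markers, 1 was lower and 3 were higher in both lines, with medians of 0.07 and -0.03. SFN, the 14-3-3 sigma gene, was at 1.76 and 0.99, and CALML3, a calmodulin-like gene of epithelia, was at 0.00 and 0.88. KRT14, the 1 lower in both lines, was at -0.15 and -0.21, and PERP at 0.10 and -0.80, both named after their values were seen. Of the 10, 0 passed. The part of either marker list in the values of CACNA1E was not tested.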

How the data were processed

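Arrays of the Illumina HumanHT-12 v3 type were run on RNA of 2 cell lines, each with SOX2 siRNA and control siRNA, 1 array per group. The values used are the authors' deposited log2 values for 48801 probes. How they were background-corrected, normalized and centred, and with which tool, is not given in the sources used here, labels included. Every column has a mean of 0.00475 and medians from -0.000497 to 0.00118, so the values look quantile-normalized and centred per probe on an unknown reference, which cancels in differences. A second deposited table holds linear intensity values in 4 columns whose names match no label. They were given to no sample and read only to settle the log base. Differences between its log2 columns were set against differences between processed columns in every pairing, and the 4 pairings with the highest absolute correlations were kept. Within LK2 and within H520 the absolute correlations were 0.994 and 0.993 and the slopes 0.896 and 1.06, where log2 values would give 1. Between the lines, both pairings kept used the H520 control array. Their correlations were 0.908 and 0.901 and their slopes 0.799 and 0.786, a looser match. The values are read as log2 on the within-line slopes. No detection p-values were used. The direction comes from the sample named for each processed column.

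Probes were named from the platform annotation, 28096 with 1 symbol, 13 with several and 20692 unnamed. A gene is the mean of its probes. The fits used limma 3.58.1 (R 4.3.3) with siRNA and cell line as terms, 1 residual and 5.19 prior degrees of freedom, Benjamini-Hochberg adjustment over 18852 genes, a threshold of 0.05 and two-sided tests. The labels give the cell line that pairs the arrays. The fit was tested on simulated arrays. The simulation tried at the start, with heavier-tailed noise, called none of its changed genes in either contrast, among them changes larger than the CACNB3 difference. The noise model and the sizes were altered after that outcome was seen. With larger changes mixed in, the heavier-tailed noise let the smallest be missed and the larger be called in part, and with noise drawn from the fitted prior nearly all were called. Which genes pass thus rests on the assumed spread, and a gene that does not pass may still differ. Tables were made with pandas 2.3.3 in Python 3.11.15. Genes named are the 10 subunits, the 2 genes with the largest mean change in each other list and any past 1.5-fold in the same direction in both lines, the 5 nearest patterns, and those said to be named after their values were seen. The members and lists were chosen with earlier results of these data known. Alternatives were 1 probe per gene, median centring, separate probes, a robust prior, all probes in the fit, no block and a 2-fold count.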

Additional observations from a re-analysis of the deposited data

How the results depend on the processing

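The values of CACNA1E in both lines and between lines, the members past 1.5-fold and the CACNB3 difference between lines stayed on the same side of their thresholds in the alternatives run for each. CACNA1E and CACNB3 have 1 probe each. The choice or separation of probes, the prior, the probes in the fit and the block thus could not alter their estimates. Their staying the same in those settings is by construction and is no sign of stability. CACNA1H passed limma between lines in the others but not by both of its probes when probes were tested separately, at adjusted p-values of 0.00634 and 0.0537. With limma and without the replicate block (the pairing by siRNA left out) CACNB3 had an adjusted p of 0.00101 and CACNA1H of 0.0185, and over the alternatives with a test they ran from 7.59e-06 to 0.00101 for CACNB3 and from 0.00634 to 0.0537 for CACNA1H. The change of CACNB1 in H520, 0.00 as the mean of 4 probes, was -0.19 with 1 probe per gene, the construction of that setting. Counts over all genes depended more on the setting. At 2-fold, 52 genes were lower and 94 higher in LK2, and 37 lower and 33 higher in H520. For SOX2 siRNA over both lines, limma called 1 gene higher and 0 lower as fitted, 14 and 17 when each gene was represented by a single probe, 25 and 26 when probes were tested one by one, 46 and 43 with all probes in the fit, and 0 higher without the replicate block for cell line. Why these counts moved was not tested. No array has a replicate, and signal over background cannot be read from centred values, so a change in a gene near background cannot be told from none. Leaving out an array would leave a line without its comparison and was not run.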

Other observations

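Transcripts antisense to or within introns of 2 of the channel genes have symbols of their own and were looked at after the other values were seen. CACNA1C-AS4 changed by 0.07 in LK2 and -0.16 in H520 with SOX2 siRNA. CACNA1C-IT2 was at -0.06 and 0.01, and CACNA1G-AS1 at -0.21 and 0.02. These 3 transcripts had 1 probe each, and all of their changes were under 1.5-fold.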
